A study of Mus musculus with 5 samples.

Results

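The genes described here move cholesterol through the liver: the enzymes that make it, the proteins that sense it and set its synthesis, those that take it up, transfer it and esterify it, the transporters that pass it into bile, and the cytochrome P450 enzymes that turn it into bile acids. They were chosen by name as 33 genes, of which 30 were measured by an array row carrying their symbol alone. The other members, *Acat2*, *Soat1* and *Soat2*, had no such row and were not analysed here. The whole table held 18820 named genes. Adult C57BL/6 mice received CSF1-Fc, a form of pig CSF1, the growth factor of macrophages, joined to a pig immunoglobulin Fc region, or phosphate-buffered saline (PBS), by subcutaneous injection on 4 days, and were killed on day 5. The study treated both males and females, and the sex of the mice was not taken into account here. Whole liver RNA was hybridized to 1-colour Affymetrix Mouse Gene 1.1 ST arrays, 3 from CSF1-Fc livers and 2 from PBS livers. Each array is named below by its group and replicate number. A level is the log2 of the normalized array intensity, and a log2 fold change is the mean level of CSF1-Fc livers minus that of PBS livers. Levels of different genes come from different probes and are not compared.

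Cholesterol is built from acetyl-CoA through mevalonate and squalene. When membranes of the endoplasmic reticulum run short of sterol, SCAP carries the transcription factor SREBP2 to the Golgi, where it is cut and released to switch on the synthesis genes. INSIG proteins hold SCAP back when sterol is plentiful. The hepatocyte also disposes of cholesterol, either unchanged through the ABCG5 and ABCG8 transporter in the canalicular membrane or as bile acids. The classical route to bile acids starts with CYP7A1 and the alternative route with CYP27A1 and CYP7B1, while CYP8B1 sets how much cholic acid is made.

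The livers differed in cell content. All 20 macrophage markers were higher after CSF1-Fc, and their summed intensity was 37420 to 41800 in CSF1-Fc livers and 7916 to 8873 in PBS livers. Among them *Lyz2* and *Vsig4* had log2 fold changes of 1.75 and 1.65. All 5 measured cell cycle markers and 7 of 9 neutrophil markers were also higher, among them *Pcna* and *Ccna2* at 1.49 and 4.23, and *S100a8* and *Retnlg* at 3.97 and 4.17. Of 10 endothelial and stellate markers 0 were higher and 1 was lower by limma (*Clec4g*, -0.74). At an unadjusted p under 0.05, 2 of these 10 were higher and 4 were lower. Of 4 cholangiocyte markers 0 passed by limma (0 higher and 1 lower at an unadjusted p under 0.05). None of 11 hepatocyte markers passed the limma test (0 higher and 4 lower at an unadjusted p under 0.05), and their summed intensity was 58910 to 67190 in CSF1-Fc livers and 69940 to 74290 in PBS livers. *Alb* and *Trf*, the 2 brightest of these 11, were at log2 fold changes of 0.03 and -0.02. Over the 11 hepatocyte markers 9 were below zero, with a median log2 fold change of -0.25 and a range of -0.93 to 0.06. At an unadjusted p under 0.05 from limma, 2484 of all 18820 named genes were higher and 2735 were lower. In whole liver, fewer hepatocytes, less RNA per hepatocyte and a smaller hepatocyte share of RNA beside added cells cannot be told apart. Enlarged livers with proliferating hepatocytes were reported in the paper. Because *Alb* was absent from its repressed cluster, the paper holds that added macrophages were not enough to dilute hepatocyte mRNA. The part of this change in cell content in the values below was not tested.

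Among the 30 genes, 1 was higher and 3 were lower in CSF1-Fc livers at an adjusted p under 0.05 from limma. Over all named genes, 8.34% were higher and 3.95% were lower by the same rule, and counts of 1 and 3 are too small to set these genes apart from that background. Rises made up 67.9% of all called genes, or 91.4% when arrays were centred on liver secreted proteins. At an unadjusted p under 0.05, 1 of the 30 was higher and 9 were lower. Of the 18820 named genes, 2484 were higher and 2735 were lower by that rule, or 27.7% in either direction. The gene that rose was *Cyp7a1*, and those that fell were *Insig2*, *Cyp8b1* and *Cyp7b1*. The CSF1-Fc and PBS values did not overlap for 16 genes, against 47.5% of all named genes. Of these, 13 were lower in all CSF1-Fc livers, against 29.3% of all named genes, and 3 were higher, against 18.2%. The median log2 fold change was -0.16 over the 30 genes and -0.08 over all named genes. With CSF1-Fc replicate 1, 2 or 3 left out, 2, 4 and 6 of the 30 genes were lower. Over all named genes the lower calls were 159, 495 and 1046 in these fits, against 743 with all 5 livers. *Cyp7a1* was not called without any 1 of the 3 CSF1-Fc livers.

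**Figure D1:**
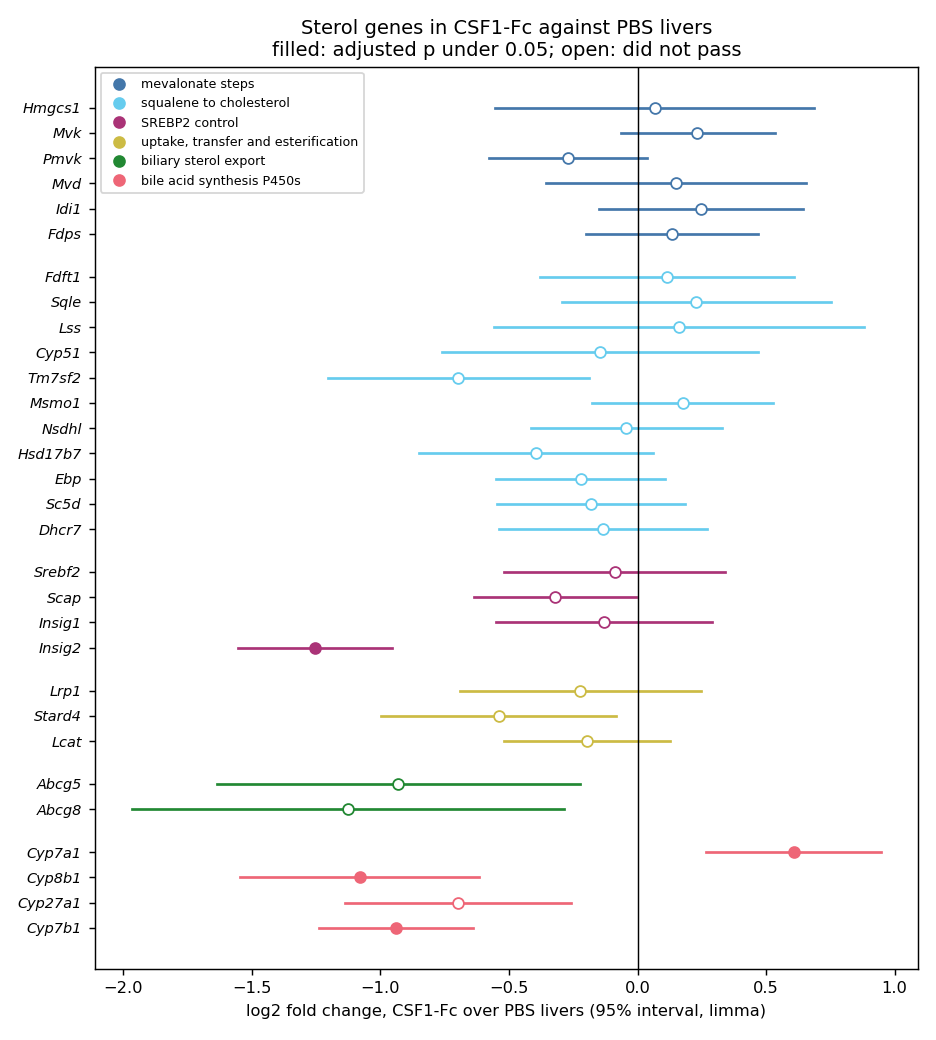
Log2 fold change, CSF1-Fc over PBS livers, for each of the 30 measured genes, with its 95% interval from limma, coloured by role. Filled points passed an adjusted p of 0.05; they are *Insig2* at -1.25, *Cyp8b1* at -1.08, *Cyp7b1* at -0.94 and *Cyp7a1* at 0.61, while every synthesis enzyme is open.

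No enzyme of cholesterol synthesis was called as changed. Of 17 measured, 0 were higher and 0 were lower by limma after adjustment (0 higher and 1 lower at an unadjusted p under 0.05), with a median log2 fold change of 0.07 and a range of -0.70 to 0.25. The 95% intervals of the 17 fold changes lay between -1.21 and 0.88, and 16 of the 17 included zero.

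Of the 6 measured enzymes of the early, mevalonate steps, 5 had fold changes above zero and none passed. *Hmgcs1*, which condenses acetyl-CoA units into HMG-CoA, was at log2 intensities of 10.25, 9.92 and 10.79 in CSF1-Fc livers and 10.18 and 10.33 in PBS livers. These values overlapped, and the log2 fold change was 0.07 (95% interval -0.55 to 0.69, adjusted p = 0.917 from limma). The mevalonate kinase *Mvk* and the isopentenyl diphosphate isomerase *Idi1* lay higher in all CSF1-Fc livers than in either PBS liver, at log2 fold changes of 0.23 and 0.25 (adjusted p = 0.329 and 0.438). Another *Idi1* row gave 0.25 as well. *Mvd* and *Fdps*, which act on either side of that isomerase, were at 0.15 and 0.13 and overlapped between the groups. The phosphomevalonate kinase *Pmvk* alone among these 6 was below zero, at -0.27 (adjusted p = 0.272).

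From squalene to cholesterol the enzymes were split in sign, 4 above zero and 7 below. *Sqle*, the squalene epoxidase and a point of control in the pathway, was at 9.72, 9.24 and 9.90 in CSF1-Fc livers and 9.30 and 9.49 in PBS livers. The groups overlapped, and the log2 fold change was 0.23 (95% interval -0.29 to 0.75). *Fdft1*, which makes squalene, *Lss*, which closes the epoxide made by *Sqle* into lanosterol, and *Msmo1*, a methylsterol oxidase, were at 0.11, 0.16 and 0.18. *Cyp51*, the lanosterol demethylase, was at -0.15, and *Nsdhl*, *Hsd17b7*, *Ebp*, *Sc5d* and *Dhcr7*, which act after it, lay between -0.40 and -0.04. The enzyme farthest from zero was the sterol reductase *Tm7sf2*. It was at 9.43, 10.10 and 9.82 in CSF1-Fc livers and 10.55 and 10.41 in PBS livers. All CSF1-Fc livers were below both PBS livers, and the difference in log2 means was -0.70 ± 0.21 (standard error; adjusted p = 0.106). Without CSF1-Fc replicate 2, its adjusted p from limma was 0.0467 at a log2 fold change of -0.86. *Tm7sf2* was not called without CSF1-Fc replicate 1 (-0.524, adjusted p = 0.2155) or replicate 3 (-0.714, adjusted p = 0.1399).

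The synthesis enzymes varied together between livers of the same group, as did other hepatocyte genes. Among CSF1-Fc livers, 12 of 17 enzymes were highest in replicate 3, intermediate in replicate 1 and lowest in replicate 2, an order held by 24.0% of all named genes. The order was not particular to these enzymes: it was held by 9 of 11 hepatocyte markers, 24 of 31 liver secreted proteins and 16 of 23 further bile acid genes. *Lss* showed it most widely, with 9.19 in replicate 3, 8.71 in replicate 1 and 8.24 in replicate 2, a 1.94-fold span. *Hmgcs1* spanned 1.83-fold and *Cyp51* 1.78-fold in the same order. Exceptions were *Mvd*, *Pmvk*, *Tm7sf2*, *Ebp* and *Sc5d*. Between the PBS livers, 15 of 17 enzymes were higher in replicate 2, against 52.8% of all named genes, by a median of 0.13 log2 units. The median gap between CSF1-Fc replicates 3 and 2 was 0.37 log2 units for the enzymes and -0.02 over all named genes. The summed hepatocyte markers fell in the same order, at 67190, 60980 and 58910 in CSF1-Fc replicates 3, 1 and 2. The part of that order in the enzymes' values was not tested, and enzymes measured in the same 5 livers are not independent of each other.

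**Figure D2:**
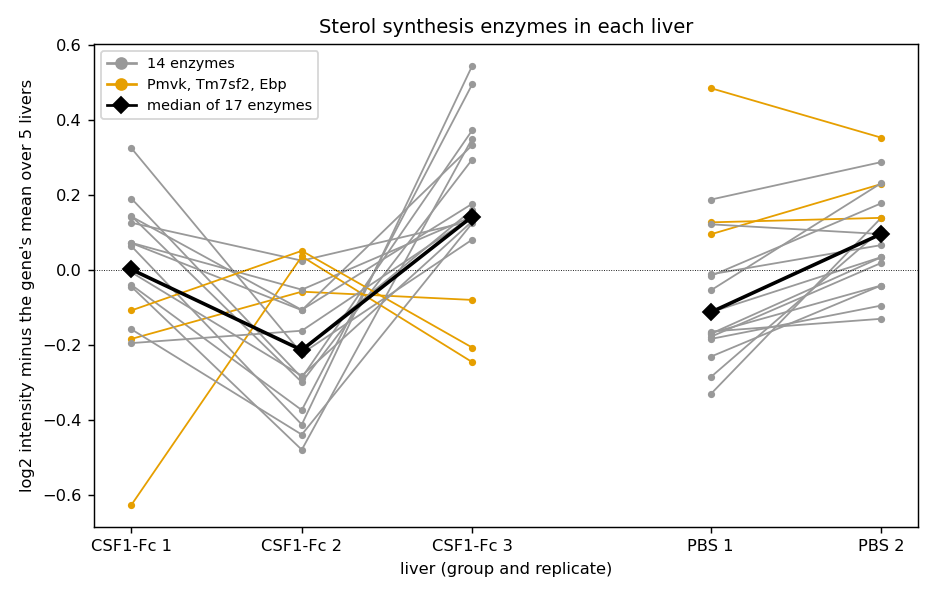
Log2 intensity of 17 cholesterol synthesis enzymes in each of the 5 livers, as the difference from each gene's own mean over the livers. Most grey lines dip at CSF1-Fc replicate 2 and peak at replicate 3, *Pmvk*, *Tm7sf2* and *Ebp* (orange) do not, and the black line is the median of the 17.

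Promoter sequences from RefSeq (mouse build GRCm38.p6) were at hand for 26 of the 33 genes and are shown for enzymes whose levels moved together between livers. In the 250 bases before the start, a CCAAT box (CCAAT on either strand), the element bound by NF-Y, a partner of SREBP2, was found for 14 of 15 synthesis enzymes at one or more of their starts, against 37.5% of all genes and 39.5% of protein-coding genes. The exception was *Acat2*, which the array did not measure. A CCAAT box was thus also found for *Mvd*, *Pmvk*, *Tm7sf2*, *Ebp* and *Sc5d*, which did not follow the order of the other enzymes between livers. Of the 11 other genes of the group, 7 had one. A sterol regulatory element spelled TCACNCCAC on either strand was found only for *Hmgcs1*, against 1.22% of all genes. A spelling that strict finds few of the sites SREBP2 can bind, and a match is a run of letters and not a site shown to be used. The stretches printed are those just before the starts of *Hmgcs1* (chr13:119690101-119690350, plus strand), *Idi1* (chr13:8885456-8885605, plus strand), *Lss* (chr10:76531455-76531604, plus strand) and *Cyp51* (chr5:4104698-4104847, minus strand), with both motifs in capitals. None of the matches overlap.
Hmgcs1: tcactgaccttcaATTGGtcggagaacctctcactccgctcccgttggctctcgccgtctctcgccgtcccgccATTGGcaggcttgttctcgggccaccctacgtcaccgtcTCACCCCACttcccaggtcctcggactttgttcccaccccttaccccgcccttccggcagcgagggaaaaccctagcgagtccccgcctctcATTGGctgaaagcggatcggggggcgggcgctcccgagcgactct
Idi1: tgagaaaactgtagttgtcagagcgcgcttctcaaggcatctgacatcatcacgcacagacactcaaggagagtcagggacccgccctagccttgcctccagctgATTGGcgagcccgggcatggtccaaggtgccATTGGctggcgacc
Lss: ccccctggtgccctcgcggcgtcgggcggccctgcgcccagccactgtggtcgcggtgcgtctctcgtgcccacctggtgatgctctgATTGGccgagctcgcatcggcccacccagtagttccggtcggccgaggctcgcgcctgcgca
Cyp51: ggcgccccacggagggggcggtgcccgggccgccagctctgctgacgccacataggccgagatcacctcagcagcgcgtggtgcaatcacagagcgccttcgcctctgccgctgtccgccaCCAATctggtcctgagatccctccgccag
*Hmgcs1* held 3 CCAAT boxes and the sterol element between them, *Idi1* held 2 in the stretch shown, and *Lss* and *Cyp51* held 1 each.

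Of the genes that govern SREBP2, *Insig2* fell and the others did not pass the test. *Insig2* encodes a retention protein whose liver form is known to be lowered by insulin in rodents. It was at log2 intensities of 10.29, 10.40 and 10.42 in CSF1-Fc livers and 11.60 and 11.65 in PBS livers. The groups were far apart beside the spread within them. The level was 2.39-fold lower than in PBS livers, a difference of -1.25 ± 0.12 in log2 means (standard error, adjusted p = 0.00178 from limma). It was the only one of the 30 genes called under all 16 alternative settings, with adjusted p-values between 0.000105 and 0.0396. *Insig1*, its paralogue and itself a target of SREBP2, was at 11.25, 11.09 and 11.41 in CSF1-Fc livers and 11.19 and 11.57 in PBS livers. Those values overlapped, and its log2 fold change was -0.13 (95% interval -0.55 to 0.29). *Srebf2*, which encodes SREBP2, was at -0.09 (95% interval -0.52 to 0.34). *Scap* lay slightly lower in all CSF1-Fc livers, at -0.32 (adjusted p = 0.205), while another, dim *Scap* row was at -0.01.

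RefSeq lists 3 starts for *Insig2*, and the array row does not separate their transcripts. The farthest upstream of them was the only one with CCAAT boxes in the 250 bases before it. The 150 bases before that start (chr1:121332590-121332739, minus strand) are shown because *Insig2* was the gene most firmly lowered, with CCAAT boxes in capitals.
Insig2: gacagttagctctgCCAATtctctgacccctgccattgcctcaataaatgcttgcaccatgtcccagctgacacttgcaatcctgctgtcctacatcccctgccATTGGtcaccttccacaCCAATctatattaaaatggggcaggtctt
This stretch held 3 CCAAT boxes and no TCACNCCAC.

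None of the 3 measured genes for uptake, transfer and esterification passed the test. *Lrp1*, a receptor for lipoprotein remnants that hepatocytes and macrophages both express, was at 11.29, 11.13 and 11.68 in CSF1-Fc livers and 11.49 and 11.69 in PBS livers, which overlapped. Its log2 fold change was -0.22 (adjusted p = 0.564). *Stard4*, which carries sterol between membranes and is a target of SREBP2, was at 7.79, 8.14 and 8.36 in CSF1-Fc livers and 8.63 and 8.64 in PBS livers. All CSF1-Fc livers were lower and spread more widely, and the log2 fold change of -0.54 did not pass (standard error 0.19, adjusted p = 0.15). *Lcat*, the plasma enzyme that esterifies cholesterol on lipoproteins, was at -0.20 (adjusted p = 0.447).

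Both subunits of the biliary sterol transporter lay lower in every CSF1-Fc liver, with a wide spread, and neither passed the test. *Abcg5* was at 8.66, 9.05 and 9.69 in CSF1-Fc livers and 10.01 and 10.11 in PBS livers. *Abcg8* was at 7.68, 8.32 and 8.94 in CSF1-Fc livers and 9.32 and 9.56 in PBS livers. In both genes CSF1-Fc replicate 1 was lowest and replicate 3 came nearest to the PBS livers. The log2 fold changes were -0.93 for *Abcg5* (standard error 0.29, adjusted p = 0.118) and -1.13 for *Abcg8* (standard error 0.35, adjusted p = 0.112). The spans among CSF1-Fc livers, 2.04-fold and 2.38-fold, were the widest of the 30 genes. Without CSF1-Fc replicate 3 both were called by limma, at -1.21 (adjusted p = 0.018) and -1.44 (adjusted p = 0.0276). Neither was called without CSF1-Fc replicate 1 (adjusted p = 0.239 and 0.183) or replicate 2 (0.201 and 0.177). Without PBS replicate 1 the log2 fold changes were -0.98 and -1.249, and without PBS replicate 2 they were -0.879 and -1.005.

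*Abcg5* and *Abcg8* are transcribed away from each other from neighbouring starts. The interval between those starts is shown because both genes followed the same order over the livers. *Insig2*, *Scap*, *Stard4* and *Sc5d* held the same order over the CSF1-Fc livers. The interval is 109 bases long (chr17:84683012-84683120, plus strand, which is the strand of *Abcg8*), and RefSeq also lists another *Abcg8* start outside it. The capitals mark the GATA motif AGATAA on either strand, which was searched after the sequence had been read.
Abcg5-Abcg8: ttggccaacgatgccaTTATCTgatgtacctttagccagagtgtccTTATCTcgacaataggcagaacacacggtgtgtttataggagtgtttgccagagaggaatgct
The motif occurred 2 times in the interval. In the 250 bases before a start it was found for 3 of 26 of the genes described here (11.5%), which are *Abcg5*, *Abcg8* and *Lcat*, and for 11.4% of all genes. Neither a CCAAT box nor TCACNCCAC was found in the interval.

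The P450 enzymes of bile acid synthesis did not move one way: *Cyp7a1* rose, *Cyp8b1* and *Cyp7b1* fell, and *Cyp27a1* did not pass. *Cyp7a1*, the rate-limiting enzyme of that route, was at 10.58, 10.42 and 10.66 in CSF1-Fc livers and 10.03 and 9.86 in PBS livers. All CSF1-Fc livers were higher than both PBS livers, by 1.52-fold (log2 fold change 0.61 ± 0.14, standard error, adjusted p = 0.0492 from limma). That call is at the edge of the threshold. Leaving out CSF1-Fc replicate 1, 2 or 3 gave adjusted p-values of 0.165, 0.0511 and 0.0758. Leaving out PBS replicate 1 or 2 gave 0.157 and 0.312, and the log2 fold change stayed between 0.52 and 0.69.

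*Cyp8b1*, the sterol hydroxylase needed for cholic acid, fell. It was at 9.99, 9.71 and 9.72 in CSF1-Fc livers and 10.64 and 11.14 in PBS livers. The CSF1-Fc livers lay close together and below both PBS livers, which were themselves 0.50 log2 units apart. The level was 2.12-fold lower than in PBS livers (log2 fold change -1.08 ± 0.19, standard error, adjusted p = 0.0197 from limma). Without PBS replicate 2 it was -0.83 (adjusted p = 0.136), and without CSF1-Fc replicate 1 it was -1.17 (adjusted p = 0.0505). The 150 bases before its start (chr9:121916306-121916455, minus strand), shown as those of a gene that fell, held neither a CCAAT box, nor TCACNCCAC, nor AGATAA.
Cyp8b1: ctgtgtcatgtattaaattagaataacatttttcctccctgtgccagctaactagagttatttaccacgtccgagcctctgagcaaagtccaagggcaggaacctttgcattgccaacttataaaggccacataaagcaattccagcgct

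Both enzymes of the alternative route lay lower in all CSF1-Fc livers, and *Cyp7b1* passed the test. *Cyp7b1*, the oxysterol hydroxylase, was at 10.89, 10.75 and 10.87 in CSF1-Fc livers and 11.77 and 11.79 in PBS livers. Values within each group were tight and the groups did not overlap, and the level was 1.92-fold lower than in PBS livers (log2 fold change -0.94 ± 0.12, standard error, adjusted p = 0.00631 from limma). Without PBS replicates 1 and 2 its adjusted p was 0.0613 and 0.0738. *Cyp27a1*, the mitochondrial sterol hydroxylase, which macrophages also express, was at 11.04, 10.70 and 11.21 in CSF1-Fc livers and 11.60 and 11.76 in PBS livers. It lay lower in all CSF1-Fc livers, at -0.70, and did not pass (standard error 0.18, adjusted p = 0.0709). It was called by limma without CSF1-Fc replicate 3, at -0.81 (adjusted p = 0.0457). *Cyp27a1* was not called without CSF1-Fc replicate 1 (-0.725, adjusted p = 0.178) or replicate 2 (-0.557, adjusted p = 0.0963).

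**Figure D3:**
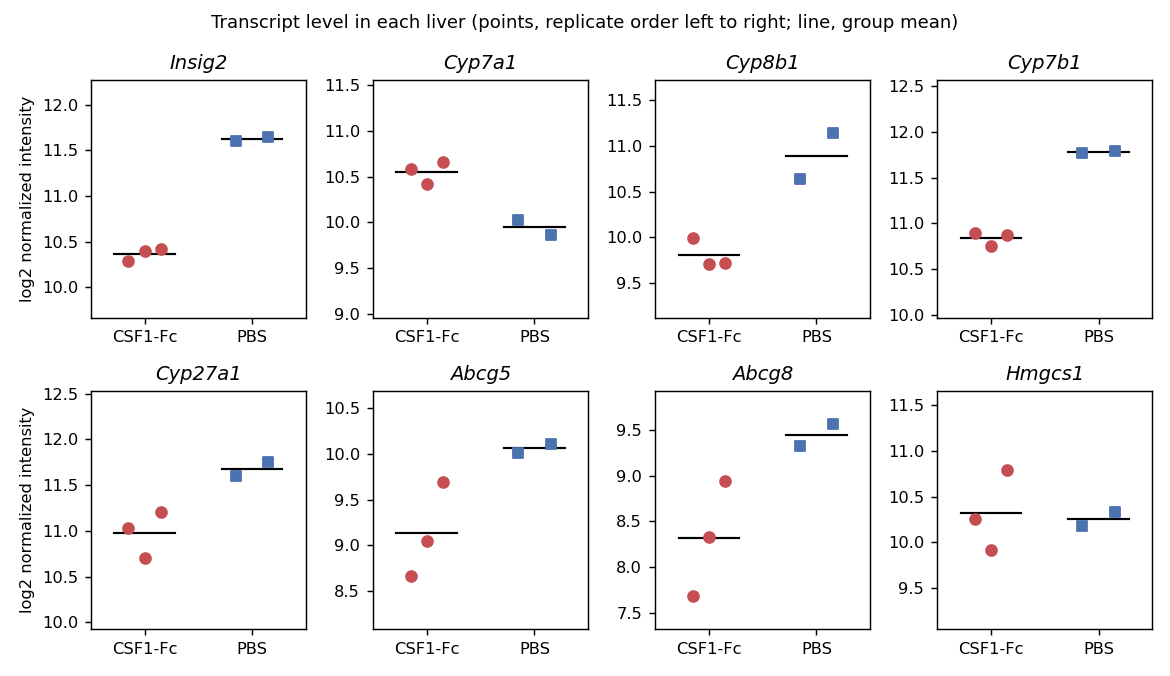
Log2 normalized intensity in each liver for 8 of the genes, CSF1-Fc (red circles) beside PBS (blue squares), with the group mean as a line and vertical axes of equal span. *Insig2* and *Cyp7b1* are tight and apart, *Abcg5* and *Abcg8* are apart with a wide spread among CSF1-Fc livers, *Cyp7a1* is the one that is higher in CSF1-Fc livers, and *Hmgcs1* overlaps.

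Other genes of the same pathways were read from lists of 74 genes, 66 of them measured. In those lists 6 were higher and 12 were lower in CSF1-Fc livers, beside 8.34% and 3.95% of all named genes. With either PBS liver left out, 2 were higher and 1 was lower. The lower count was 2 when CSF1-Fc replicate 1 was dropped and 6 when replicate 2 was dropped.

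Of the 12 lower calls, 9 were in bile acid synthesis and transport, a list in which 9 of 23 genes were lower and 0 were higher (0 higher and 17 lower at an unadjusted p under 0.05 from limma), with a median log2 fold change of -0.66. By the unadjusted rule 2484 of all 18820 named genes were higher and 2735 were lower. *Abcb4*, which flips phosphatidylcholine into bile, was at 9.50, 9.02 and 9.76 in CSF1-Fc livers and 10.56 and 10.84 in PBS livers (log2 fold change -1.27, standard error 0.24, adjusted p = 0.0234). *Abcb11*, the canalicular bile salt pump, was at 10.47, 10.28 and 10.77 in CSF1-Fc livers and 11.49 and 11.63 in PBS livers (log2 fold change -1.05, standard error 0.18, adjusted p = 0.0157). *Akr1d1*, a steroid reductase of bile acid synthesis, was at -0.96 (adjusted p = 0.0122). For these 3 genes every CSF1-Fc liver lay below both PBS livers. With PBS replicate 1 left out their adjusted p-values were 0.0876, 0.0835 and 0.0705, and with PBS replicate 2 left out they were 0.174, 0.135 and 0.116. Dropping CSF1-Fc replicate 1 gave 0.0829, 0.0732 and 0.0613. The list held 1 lower gene when CSF1-Fc replicate 1 was dropped, 5 when replicate 2 was and 12 when replicate 3 was.

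Of the 6 rises, 3 were among 19 further genes of cholesterol uptake and transfer and 2 among 5 genes of LXR targets and cholesterol efflux. Most genes of the first list were not higher: its median log2 fold change was -0.27, with 12 of 19 below zero and 1 lower by the test. The second had a median of -0.11, with 1 lower by the test. *Abcg1*, a target of the oxysterol receptor LXR that exports cholesterol to lipoproteins and is abundant in macrophages, was at 9.43, 9.33 and 9.56 in CSF1-Fc livers and 7.06 and 7.07 in PBS livers. It was 5.18-fold higher (log2 fold change 2.37, standard error 0.13, adjusted p = 0.000392), and was called under all 16 alternatives. *Nr1h3*, which encodes LXR alpha, was at 0.78 (adjusted p = 0.0308), while *Abca1*, another LXR target, was at -0.11 (adjusted p = 0.785). *Npc2*, which hands cholesterol out of the lysosome, the membrane transfer protein *Gramd1b*, and *Stard3*, of late endosomes, were at 1.19, 1.31 and 0.81 (adjusted p = 0.00586, 0.00559 and 0.0332). *Abca1* was named after its value was seen. The macrophage markers rose in the same livers, and their part in these rises was not tested.

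Outside these groups, *Lbr*, a sterol reductase that is also a lamin receptor of the nuclear envelope, was higher, at 9.06, 8.73 and 9.19 in CSF1-Fc livers and 7.58 and 7.76 in PBS livers (log2 fold change 1.32, standard error 0.18, adjusted p = 0.00648). It was the 1 gene higher among 19 further genes of sterol synthesis and SREBP processing, where *Pdss2*, of ubiquinone synthesis, was the 1 lower, at -0.64 (adjusted p = 0.0443). *Tm7sf2* carries out the same reduction as *Lbr* and, with the values given above, lay on the other side of zero. In the list of LXR targets and efflux, the 1 lower gene was the endothelial lipase *Lipg* (log2 fold change -1.95, adjusted p = 0.00126 from limma). It was at 4.85, 4.54 and 4.86 in CSF1-Fc livers and 6.52 and 6.87 in PBS livers, from a row that was dim in the CSF1-Fc group. *Scp2*, a sterol carrier of peroxisomes and the 1 lower gene of the uptake and transfer list, was at -0.72 (adjusted p = 0.0456 from limma). By adjusted p, calls ended with PBS replicate 1 left out for *Lbr* (0.0626), *Gramd1b* (0.0549), *Stard3* (0.109), *Scp2* (0.211), *Nr1h3* (0.127) and *Pdss2* (0.133). With PBS replicate 2 left out they ended for *Npc2* (0.0665), *Gramd1b* (0.0514), *Stard3* (0.238), *Scp2* (0.231), *Nr1h3* (0.22) and *Pdss2* (0.297). *Stard3*, *Scp2*, *Nr1h3* and *Pdss2* were also lost when CSF1-Fc replicate 1 was dropped (0.128, 0.16, 0.122 and 0.159) or replicate 2 was (0.0699, 0.0884, 0.0622 and 0.0855).

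**Figure D4:**
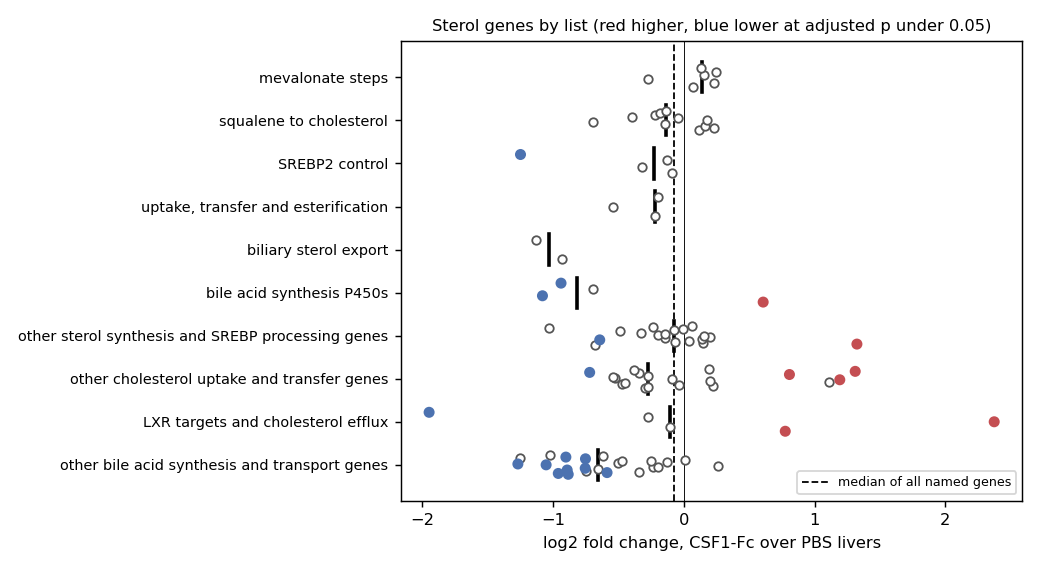
Log2 fold change, CSF1-Fc over PBS livers, of each measured gene in the 6 role groups and 4 further pathway lists, with list medians as black bars and the median of all named genes, -0.08, as a dashed line. Blue points (lower) gather in the bile acid list, whose median is -0.66, and 5 of the 6 red points (higher) in the further lists are in uptake and transfer (3 of 19 genes, list median -0.27) and LXR targets and efflux (2 of 5, list median -0.11), with *Abcg1* farthest right at 2.37.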

How the data were processed

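Liver RNA from 3 CSF1-Fc and 2 PBS mice was run on Affymetrix arrays (Mouse Gene 1.1 ST), 1 array per liver. The deposited intensities were normalized by the authors and are on a linear scale, with 1 value for each of 35556 rows. The submitters' processing notes name Expression Console 1.1, and the study's methods name Partek Genomics Suite. Methods for background correction, normalization and probe summaries were not given in the sources used here. Array medians were 31.1 to 33.0. Correlations of log2 values were 0.983 to 0.991 within groups and 0.96 to 0.973 across them.

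Log2 values with no pseudocount entered a linear model by group (limma 3.58.1, R 4.3.3; lmFit, eBayes). Benjamini-Hochberg adjustment ran over all 35556 rows, with a threshold of 0.05. Residual and prior degrees of freedom were 3 and 3.34. The brightest row stood for a gene among 21218 rows of 1 symbol. Symbols came from the platform annotation, through which 1881 rows had several symbols and 12457 had none. An exact permutation test of 3 against 2 livers cannot go below 0.1, so none was run, and the number of arrays limits precision. Members and lists were chosen with earlier results of these data known. The genes named were all members, the 3 largest rises and falls past the threshold in each pathway list, and the 2 brightest of the macrophage, neutrophil, cell cycle and hepatocyte markers, with *Clec4g* and *Abca1* named after their values were seen. Alternatives were other scalings, filters, row choices, variance models, array weights, a pseudocount, the replicate block and each liver left out.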

Additional observations from a re-analysis of the deposited data

How the results depend on the processing

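Of 480 fold changes of the 30 genes over 16 alternatives, 418 kept their direction and their side of the threshold, 21 came to pass it, 16 no longer passed and 25 changed sign. Counts of genes higher and lower were 1 and 3 of the 30 sterol genes and 6 and 12 of the 66 pathway genes. The 1 higher was 0 with no moderation, with quantile normalization (*Cyp7a1*, adjusted p = 0.0503 from limma) and with the replicate block. Over all named genes the higher calls went from 1570 to 419, 1553 and 1182 in these settings. The 3 lower became 9 with array weights, 7 with the mean over the rows of a gene, 7 with rows of 1 gene symbol and 1 when arrays were centred on liver secreted proteins. Over all named genes the lower calls went from 743 to 2231, 1709, 1637 and 218 in the same settings. The 6 pathway genes higher became 1 with no moderation. The 12 lower became 24 with array weights, 22 with the mean over rows, 21 with rows of 1 symbol, 4 with centring on secreted proteins, 0 with no moderation and 7 with the replicate block. With no moderation and with the replicate block, the lower calls over all named genes were 92 and 481. With 1 CSF1-Fc liver left out, the 4 counts of sterol and pathway genes ranged over 0 to 0, 2 to 6, 4 to 6 and 2 to 16. The lower calls over all named genes then ranged from 159 to 1046. Fewer rows were fitted and adjusted over in the settings with 1 symbol or 1 value per gene. In each of those settings, and with array weights, *Tm7sf2*, *Abcg5*, *Abcg8* and *Cyp27a1* were among the sterol genes called lower. The filter on a mean log2 intensity of at least 5, with 17804 rows, gave 4 lower sterol genes and 16 lower pathway genes, beside 1076 lower named genes. The cause of the moves in these counts was not tested.

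Centring on secreted proteins raised the median of all named genes by 0.32 log2 units and the share of rises among called genes to 91.4%, against 67.9%. There the sign turned for *Pmvk* (0.054), *Cyp51* (0.18), *Nsdhl* (0.28), *Ebp* (0.10), *Sc5d* (0.14), *Dhcr7* (0.19), *Srebf2* (0.23), *Scap* (0.001), *Insig1* (0.19), *Lrp1* (0.10) and *Lcat* (0.13), none of which was called, and *Cyp8b1* (-0.76, adjusted p = 0.0704) and *Cyp7b1* (-0.62, adjusted p = 0.0594) no longer passed. With array weights *Srebf2* was at 0.001. With 1 liver left out the sign also turned within the ranges of *Hmgcs1* (-0.17 to 0.27), *Mvd* (-0.045 to 0.35), *Fdft1* (-0.009 to 0.29), *Lss* (-0.078 to 0.40), *Cyp51* (-0.35 to 0.064), *Nsdhl* (-0.13 to 0.054), *Srebf2* (-0.17 to 0.054) and *Insig1* (-0.32 to 0.062).

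The replicate numbers were not taken to pair mice. Deviations from the group means correlated over genes at -0.0552 for replicate 1 and -0.311 for replicate 2. With 2 PBS livers the PBS deviations mirror each other, so these correlations cannot show whether mice were paired. With the replicate block, which sets CSF1-Fc replicate 3 aside, 0 genes were higher and 4 lower, *Abcg5* (adjusted p = 0.026) and *Abcg8* (0.0183) among them, while *Cyp7a1* (0.135) and *Cyp8b1* (0.0739) were not called and *Hmgcs1* (-0.17), *Fdft1* (-0.009) and *Lss* (-0.078) changed sign. Without moderation *Cyp7a1* (0.14) and *Cyp8b1* (0.161) did not pass.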
